A study of Mus musculus with 18 samples.

Results

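The 6 genes described here, Ins2, Iapp, Ucn3, Slc2a2, G6pc2 and Gjd2, encode what a mature beta cell secretes, how it takes up and handles glucose, and how it is coupled to its neighbours. They were chosen by name, and each was read from its own transcript cluster, the set of array probes assigned to that gene alone. Each of the 6 had exactly 1 such cluster. They are 6 of 22180 genes with a cluster of their own, and all 6 were among the 15526 genes tested, which had a mean log2 signal above 2.99.

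Hand-picked pancreatic islets of mice aged 6 and 16 weeks gave the RNA, which was hybridised to Affymetrix Mouse Gene ST arrays. The groups were C57BL/KsJ db/db mice with lean C57BL/KsJ controls of the same age, and C57BL/6J ob/ob mice with lean C57BL/6J controls of the same age. The db mutation removes the long form of the leptin receptor and the ob mutation removes leptin itself, each in every cell of the body, and the series title sets a diabetes-prone against a diabetes-resistant obese mouse. The genotype of the lean controls is given only as control. A table of 16 arrays held 2 arrays of each of these 8 groups. A smaller table from a related array design held 1 further db/db and 1 further lean KsJ array of 16 weeks, numbered replicate 3. The labels do not say whether an array is 1 animal or a pool, so the p-values measure only the spread between these samples. In the larger table the KsJ arrays share a code in their titles and the 6J arrays share another, so strain and whatever those codes mark cannot be told apart, and the 2 models were compared only through their own lean controls.

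In mouse islets, glucose enters beta cells through the transporter GLUT2, is phosphorylated, and is burned to close potassium channels and release insulin. Insulin is stored and released together with amylin, the product of Iapp. Urocortin 3, the product of Ucn3, is secreted by mature mouse beta cells and acts on neighbouring delta cells through the receptor Crhr2. Gap junctions of connexin 36, the product of Gjd2, join beta cells so that their calcium waves run together. All 6 genes are used as marks of a mature beta cell.

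Slc2a2, which encodes GLUT2, was the gene whose signal lay below its lean controls most widely. Every obese array lay below every lean array of its own strain and age in all 4 obese against lean comparisons, with mean log2 differences of -0.55 and -1.05 for db/db islets at 6 and 16 weeks and of -0.74 and -0.90 for ob/ob islets at 6 and 16 weeks. Of all genes tested, 170, or 1.09%, lay below in this way in all 4. Iapp lay above its lean controls on every array in 3 of the 4 comparisons, as did 12.4% of all genes in 3 or more. Gjd2 and Ucn3 were lower on average in all 4, and Ins2 and G6pc2 stayed within 0.37 of their lean controls.

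None of these differences passed the test. limma called 0 of 72 differences, 6 genes in 12 comparisons, at an adjusted p below 0.05, and the smallest adjusted p was 0.108. At an unadjusted p below 0.05 there were 8 of 72, against 10.8% of all genes over the same 12 comparisons. The share of all genes called was 0.0258% for db/db against lean islets at 6 weeks and 5.80% at 16 weeks. It was 0.00% for ob/ob against lean islets at 6 weeks and 0.0708% at 16 weeks. With 2 arrays a group and such shares, a count of 0 among 6 genes says little about them. The intervals below show the sizes of signal difference that the spread between arrays allows. In whole islets, fewer beta cells and less RNA per beta cell cannot be told apart.

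**Figure D1:**
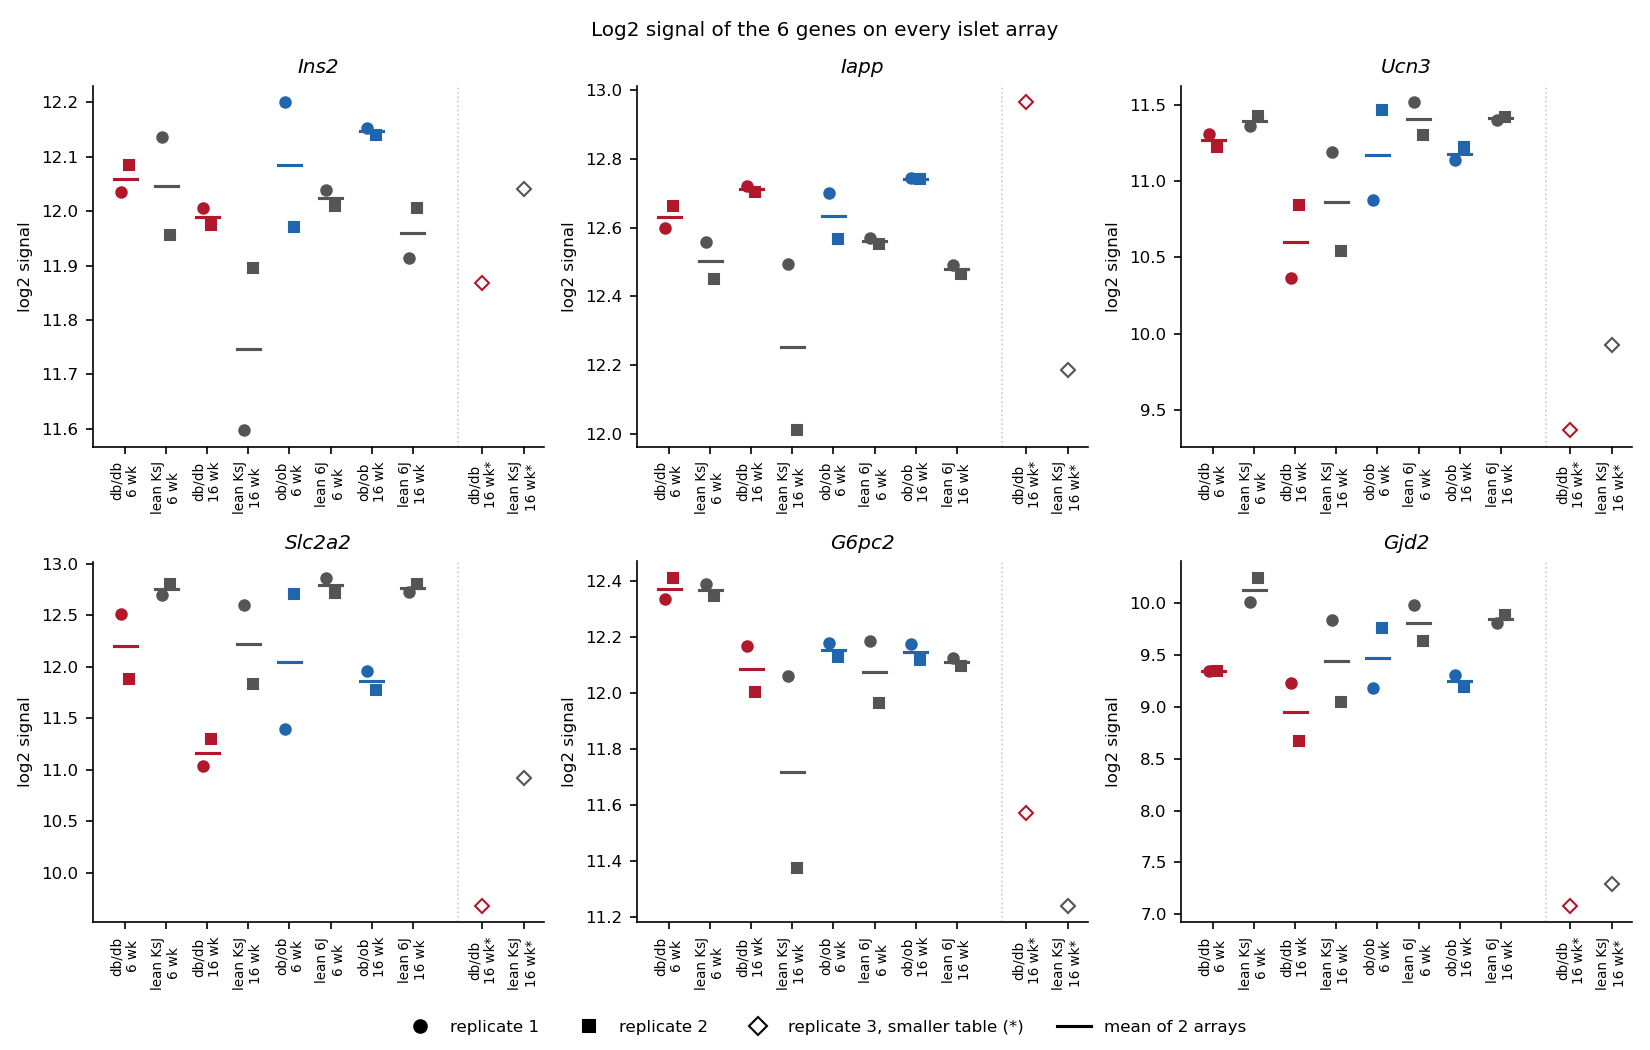
Log2 signal of each of the 6 genes on every array, in 8 groups of 2 arrays (filled circle for replicate 1, filled square for replicate 2, line for their mean) and, right of the dotted line, on the 2 arrays of the smaller table (open diamonds), which are on another scale. Red is db/db, blue ob/ob and grey lean. Slc2a2 spans 1.83 log2 units over the 16 arrays and is lowest in 16-week db/db islets, while Ins2 spans 0.60. Each vertical axis has its own range and does not start at 0.

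The hormone genes come first. Ins2 is the mouse insulin gene that is shared with other mammals, and its signal can take up transcripts of its near-identical partner Ins1, which was not analysed here. In 16-week islets Ins2 had 12.01 and 11.97 in db/db mice, against 11.60 and 11.90 in lean KsJ mice. In 16-week ob/ob islets it had 12.15 and 12.14, against 11.91 and 12.01 in lean 6J mice. The obese arrays lay above the lean ones in both strains at this age. The differences were 0.24 ± 0.16 (SE) for db/db and 0.19 ± 0.16 for ob/ob, with 95% intervals from -0.11 to 0.59 and from -0.16 to 0.54. The db/db difference was 0.094 without lean replicate 1 and 0.39 without lean replicate 2.

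At 6 weeks Ins2 had 12.04 and 12.08 in db/db islets, against 12.14 and 11.96 in lean KsJ islets. It had 12.20 and 11.97 in ob/ob islets, against 12.04 and 12.01 in lean 6J islets. Both pairs of groups overlapped, and the intervals ran from -0.34 to 0.36 for db/db and from -0.29 to 0.41 for ob/ob. From the highest group mean to the lowest, the order was 16-week ob/ob at 12.15, 6-week ob/ob at 12.09, 6-week db/db at 12.06, 6-week lean KsJ at 12.05, 6-week lean 6J at 12.02, 16-week db/db at 11.99, 16-week lean 6J at 11.96 and 16-week lean KsJ at 11.75. Neighbours in that order overlapped in 5 of 7 cases. The Ins2 values lay between 1.18 and 1.71 below the brightest cluster of the same array, near the top of the measured scale. At their closest, Slc2a2 (0.48 to 2.26 below), Iapp (0.53 to 1.60) and G6pc2 (0.96 to 2.24) came nearer to it. Whether differences between signals this bright read too small was not tested, and the intervals do not take it in.

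Iapp encodes amylin, the peptide that forms amyloid in human and cat islets but not in those of mice. In 16-week islets it had 12.72 and 12.70 in db/db mice, against 12.49 and 12.01 in lean KsJ mice. It had 12.74 and 12.74 in ob/ob mice of that age, against 12.49 and 12.46 in lean 6J mice. The 4 obese arrays lay between 12.70 and 12.74 and above all 4 lean arrays, of which lean KsJ replicate 2 stood lowest. The differences were 0.46 ± 0.17 for db/db (95% interval 0.09 to 0.84, adjusted p = 0.127) and 0.26 ± 0.17 for ob/ob (-0.11 to 0.64, adjusted p = 0.482).

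At 6 weeks Iapp had 12.60 and 12.66 in db/db islets, against 12.56 and 12.45 in lean KsJ islets, with the db/db arrays above. It had 12.70 and 12.57 in ob/ob islets, against 12.57 and 12.55 in lean 6J islets, and these groups overlapped. The differences were 0.13 ± 0.17 for db/db and 0.073 ± 0.17 for ob/ob. In the order of group means all 4 obese groups, from 12.74 to 12.63, came before all 4 lean groups, from 12.56 to 12.25. Neighbours in that order overlapped in 4 of 7 cases.

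By group mean, Ucn3 was at its lowest in 16-week KsJ islets, of db/db and lean mice. It had 10.36 and 10.84 in 16-week db/db islets, against 11.19 and 10.54 in lean KsJ islets. The low lean array, replicate 2, had the highest mean of exocrine (acinar) markers in the larger table. The 2 groups overlapped, and the difference was -0.26 ± 0.25 (95% interval -0.82 to 0.30, adjusted p = 0.557). In 16-week ob/ob islets Ucn3 had 11.14 and 11.22, against 11.40 and 11.42 in lean 6J islets. The ob/ob arrays lay below, with a difference of -0.23 ± 0.25 (-0.79 to 0.33).

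At 6 weeks Ucn3 had 11.31 and 11.22 in db/db islets, against 11.36 and 11.43 in lean KsJ islets, with the db/db arrays just below. It had 10.88 and 11.46 in ob/ob islets, against 11.51 and 11.30 in lean 6J islets, and these overlapped. The differences were -0.13 ± 0.25 for db/db and -0.24 ± 0.25 for ob/ob. By group mean, the order was 16-week lean 6J (11.41), 6-week lean 6J (11.41), 6-week lean KsJ (11.39), 6-week db/db (11.27), 16-week ob/ob (11.18), 6-week ob/ob (11.17), 16-week lean KsJ (10.87) and 16-week db/db (10.60). Arrays of neighbouring groups overlapped in 5 of 7 cases.

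For glucose entry, Slc2a2 in 16-week db/db islets had 11.03 and 11.30, against 12.60 and 11.83 in lean KsJ islets. Both db/db arrays were below both lean arrays, and lean replicate 2, the lower one, was nearer to them. The difference of -1.05 ± 0.38 is a signal 2.07 times lower, with a 95% interval from -1.89 to -0.22 and an adjusted p of 0.121. With every array centred on its own median the difference was -0.86. Without lean replicate 2 it was -1.43, and without lean replicate 1 it was -0.67. With both tables joined and the table as a block it was -1.11 ± 0.30. That fit called it (adjusted p = 0.029) as 1 of 2084 genes among 15526, beside 900 in the fit over 16 arrays.

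In 16-week ob/ob islets Slc2a2 had 11.96 and 11.77, against 12.72 and 12.80 in lean 6J islets. The replicates of each group lay close together and the groups were far apart, with a difference of -0.90 ± 0.38, 1.87 times lower (95% interval -1.73 to -0.07, adjusted p = 0.267). A fit to these 4 arrays alone called it (adjusted p = 0.035), as did a fit with array weights (adjusted p = 0.023). These fits called 1273 and 2969 of 15526 genes, beside 11 in the fit over 16 arrays. The mean log2 signal of 12 acinar genes, markers of the exocrine pancreas, was higher on both ob/ob arrays (9.65 and 9.20) than on the lean 6J arrays (8.52 and 7.99). With acinar and enterocyte (gut lining) means as covariates the difference was -0.63 ± 0.39. The standard error of the fit over 16 arrays takes in the wider spread of other groups.

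Slc2a2 varied more between replicates at 6 weeks. It had 12.51 and 11.88 in db/db islets, against 12.69 and 12.80 in lean KsJ islets. It had 11.40 and 12.70 in ob/ob islets, against 12.86 and 12.71 in lean 6J islets. Both db/db arrays lay below the lean ones, with replicate 1 the nearer to them. Of the ob/ob arrays, replicate 2 lay just below the lower lean array and replicate 1 far below it. The differences were -0.55 ± 0.38 for db/db (95% interval -1.38 to 0.28) and -0.74 ± 0.38 for ob/ob (-1.57 to 0.09). Without ob/ob replicate 1 the ob/ob difference was -0.087, and without replicate 2 it was -1.39. Without db/db replicate 2 the db/db difference was -0.24, and without replicate 1 it was -0.87.

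The order of the Slc2a2 group means was 6-week lean 6J (12.79), 16-week lean 6J (12.76), 6-week lean KsJ (12.75), 16-week lean KsJ (12.22), 6-week db/db (12.20), 6-week ob/ob (12.05), 16-week ob/ob (11.86) and 16-week db/db (11.17). The arrays of the first 3 groups overlapped and lay above every other array except 1 of 6-week ob/ob islets, which lay among them. The arrays of 16-week db/db islets lay below those of every other group. The share of genes whose arrays lay below the lean ones was 27.9% for db/db at 6 weeks, 10.4% for db/db at 16 weeks, 16.8% for ob/ob at 6 weeks and 33.3% for ob/ob at 16 weeks. Among the 6 genes, 3, 1, 1 and 3 did so in those comparisons. The shares lying above were 21.9%, 32.8%, 19.9% and 28.2% of all genes in the same order, against 1, 2, 0 and 2 of the 6.

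**Figure D2:**
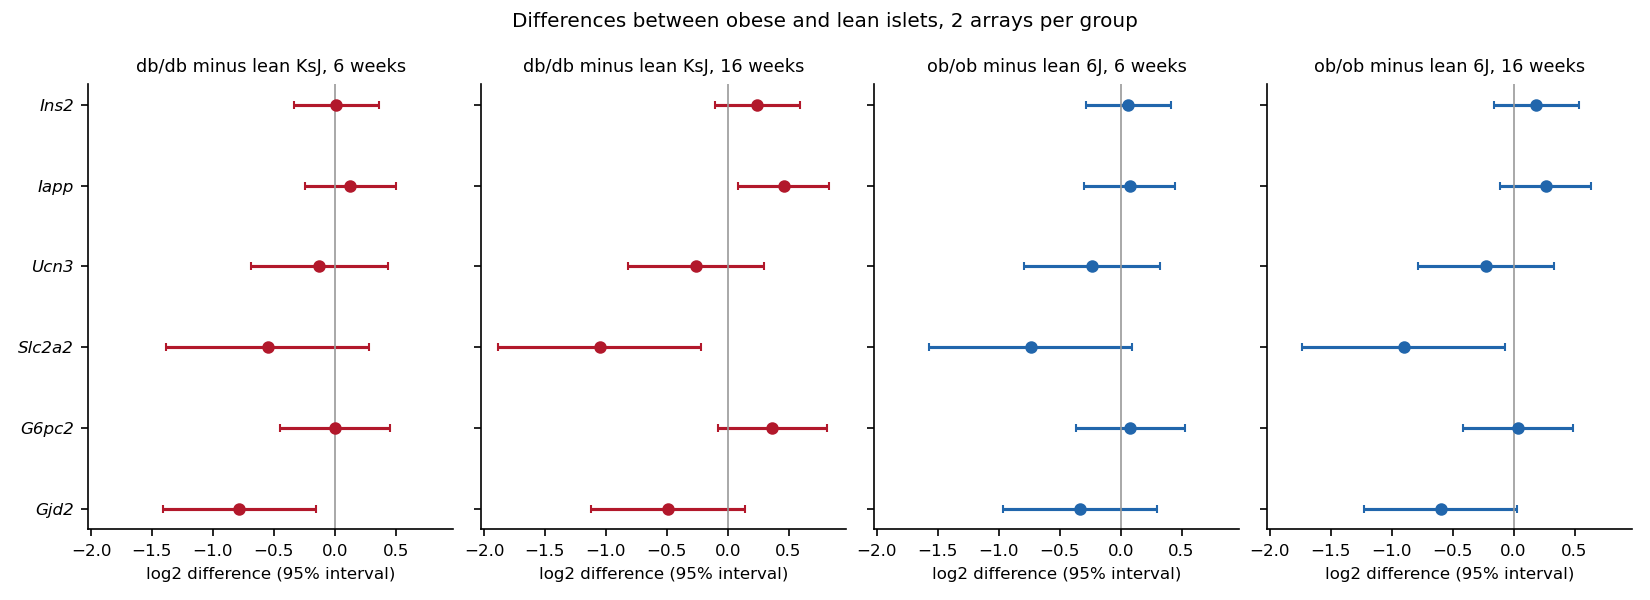
Log2 difference between obese and lean islets for each of the 6 genes (points) with its 95% interval (bars), in 4 comparisons of 2 arrays against 2, all from the fit over 16 arrays. The intervals of Slc2a2 and Iapp at 16 weeks and of Gjd2 at 6 weeks in db/db islets, and of Slc2a2 at 16 weeks in ob/ob islets, do not reach 0, but no adjusted p is below 0.05.

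G6pc2 encodes the islet glucose-6-phosphatase, which turns glucose 6-phosphate back into glucose. It had 12.17 and 12.00 in 16-week db/db islets, against 12.06 and 11.37 in lean KsJ islets. The groups overlapped because lean replicate 1 lay between the db/db arrays, and lean replicate 2 had the lowest G6pc2 value of all 16 arrays. The difference was 0.37 ± 0.20 (95% interval -0.08 to 0.82, adjusted p = 0.295). It was 0.025 without lean replicate 2 and 0.71 without lean replicate 1, and each of these fits leaves 1 lean array.

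The other G6pc2 comparisons were flat. It had 12.33 and 12.41 in 6-week db/db islets, against 12.39 and 12.34 in lean KsJ islets. It had 12.18 and 12.13 in 6-week ob/ob islets, against 12.18 and 11.96 in lean 6J islets, and 12.18 and 12.12 in 16-week ob/ob islets, against 12.13 and 12.10 in lean 6J islets. All 3 pairs of groups overlapped, with intervals from -0.45 to 0.46, from -0.37 to 0.53 and from -0.42 to 0.48. By group mean, 6-week db/db (12.37) and 6-week lean KsJ (12.37) came first and their arrays lay above those of every other group. The next 5, in order 6-week ob/ob (12.15), 16-week ob/ob (12.15), 16-week lean 6J (12.11), 16-week db/db (12.08) and 6-week lean 6J (12.07), overlapped with their neighbours, and 16-week lean KsJ (11.72), which overlapped with the last of them, was lowest.

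Gjd2 was the only gene of the 6 whose largest obese against lean difference was at 6 weeks. It had 9.35 and 9.34 in 6-week db/db islets, against 10.01 and 10.25 in lean KsJ islets. The groups were well apart, with a difference of -0.78 ± 0.29, or 1.72 times lower (95% interval -1.41 to -0.15, adjusted p = 0.539). At 16 weeks it had 9.23 and 8.67 in db/db islets, against 9.84 and 9.05 in lean KsJ islets. Here the groups overlapped, and the difference was -0.49 ± 0.29 (-1.12 to 0.14). It was -0.10 without lean replicate 1, -0.88 without lean replicate 2, -0.77 without db/db replicate 1 and -0.21 without db/db replicate 2.

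In ob/ob islets Gjd2 had 9.31 and 9.20 at 16 weeks, against 9.81 and 9.89 in lean 6J islets. The ob/ob arrays lay below, with a difference of -0.60 ± 0.29 (95% interval -1.23 to 0.03, adjusted p = 0.326). The fit with array weights called it (adjusted p = 0.033) as 1 of 2969 genes among 15526. With acinar and enterocyte means as covariates, of which the acinar mean was higher on both ob/ob arrays, it was -0.33 ± 0.20 (adjusted p = 0.471). At 6 weeks Gjd2 had 9.18 and 9.76 in ob/ob islets, against 9.98 and 9.63 in lean 6J islets. Those groups overlapped, and the difference was -0.33 ± 0.29. By group mean, the order was 6-week lean KsJ (10.13), 16-week lean 6J (9.85), 6-week lean 6J (9.81), 6-week ob/ob (9.47), 16-week lean KsJ (9.44), 6-week db/db (9.35), 16-week ob/ob (9.25) and 16-week db/db (8.95), with 5 of 7 neighbouring pairs overlapping.

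With age, Slc2a2 and Ucn3 were lower in db/db islets of 16 weeks than in those of 6 weeks. The differences, 16 minus 6 weeks, were -1.03 ± 0.38 for Slc2a2 (95% interval -1.87 to -0.20, adjusted p = 0.525) and -0.66 ± 0.25 for Ucn3 (-1.22 to -0.10, adjusted p = 0.550). Gjd2 differed by -0.39 ± 0.29, G6pc2 by -0.29 ± 0.20, Ins2 by -0.070 ± 0.16 and Iapp by 0.081 ± 0.17. The acinar mean was 9.89 and 10.78 on the 16-week db/db arrays, against 8.39 and 9.65 on the 6-week ones, and the enterocyte mean was 6.26 and 8.52, against 5.21 and 4.53. With both means as covariates the difference was 0.21 ± 0.24 for Gjd2 and 0.068 ± 0.21 for G6pc2, which turned their sign, and -0.62 ± 0.45 for Slc2a2 and -0.42 ± 0.32 for Ucn3. For 5 of the 6 genes both 16-week db/db arrays lay below both 6-week arrays, and for Iapp they lay above, against 21.2% and 18.2% of all genes. limma called 0.0644% of all genes in this comparison.

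In ob/ob islets the same 6 differences by age lay between -0.22 for Gjd2 and 0.11 for Iapp, with Slc2a2 at -0.18 ± 0.38. Uty, a gene of the Y chromosome, was at 7.25 and 7.61 on the 6-week ob/ob arrays and at 2.21 and 2.33 on the 16-week ones. Age and sex therefore cannot be told apart in the ob/ob comparison by age. The ages overlapped for 5 genes, 16-week arrays lay above for 1 and below for 0, against 16.9% and 19.4% of all genes, and 0.00% of all genes were called. In lean 6J islets the differences by age lay between -0.082 for Iapp and 0.042 for Gjd2. There the 16-week arrays lay below for 2 genes and above for 0, against 13.7% and 21.9% of all genes, with 0.00% called.

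Lean KsJ islets were lower at 16 weeks for all 6 genes. The difference was -0.65 ± 0.20 for G6pc2 (adjusted p = 0.108), -0.69 ± 0.29 for Gjd2, -0.53 ± 0.38 for Slc2a2, -0.53 ± 0.25 for Ucn3, -0.30 ± 0.16 for Ins2 and -0.25 ± 0.17 for Iapp. For 5 of the 6 both 16-week arrays lay below both 6-week arrays and for 0 above, against 44.1% and 8.03% of all genes, and 0.00% of all genes were called. The median over the 6 genes was -0.53, beside a median of -0.26 over all genes tested. The 16-week lean KsJ replicate 2 was lower than replicate 1 by 0.48 to 0.79 for every gene of the 6 except Ins2. Without replicate 1 the difference was -0.99 for G6pc2, -1.08 for Gjd2, -0.85 for Ucn3 and -0.49 for Iapp. Without replicate 2 it was -0.31, -0.29, -0.20 and -0.0098 in the same order, and each of these fits leaves 1 array in the group. Slc2a2 differed by -0.92 without replicate 1 and by -0.15 without replicate 2, and Ins2 by -0.15 and -0.45.

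Whether the obese against lean difference itself changed with model or age was tested directly. At 16 weeks the db/db difference minus the ob/ob difference was -0.15 ± 0.54 for Slc2a2 (95% interval -1.33 to 1.03), 0.33 ± 0.29 for G6pc2 and 0.20 ± 0.24 for Iapp, with 0.0129% of all genes called. At 6 weeks it was -0.45 ± 0.41 for Gjd2 and 0.19 ± 0.54 for Slc2a2, with 0.00% called. The change of the db/db difference between 6 and 16 weeks was -0.50 ± 0.54 for Slc2a2 and 0.36 ± 0.29 for G6pc2, with 0.00644% called. The same change for ob/ob was -0.16 ± 0.54 for Slc2a2 and -0.26 ± 0.41 for Gjd2, with 0.00% called. None of these 24 values was called, and the 4 Slc2a2 intervals reach from -1.68 to 1.37 at their widest, so the arrays do not settle whether both models differ from their controls by the same amount.

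The smaller table gives a further reading of 16-week KsJ islets, with 1 array a group and no test. Slc2a2 had 9.68 in the db/db array, against 10.92 in the lean array, a difference of -1.24. Of all genes, 2.24% differed by -1 or less there. Iapp had 12.96, against 12.18 in the lean array, and the difference of 0.78 has the sign seen in the larger table.

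Ucn3 had 9.37 in that db/db array, against 9.93 in the lean array, and Gjd2 had 7.08, against 7.29. G6pc2 had 11.57, against 11.24 in the lean array. Ins2 had 11.87, against 12.04 in the lean array, and its difference of -0.17 has the opposite sign to the larger table, but was 0.016 once the 2 arrays were centred on their medians. All other 5 genes had the same sign in both tables. Centring moved every difference up by as much as that of Ins2, so the Gjd2 difference of -0.21 rests on the scaling as well. Of all genes tested, the median difference in the smaller table was 0.091.

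A value relative to Iapp on the same array takes out any constant shift between arrays, though not a change in the shape of their scales. Because Iapp itself lay higher in obese islets, it also places more genes below their lean controls. Relative to Iapp, 41.0% of all other genes lay below on every array in db/db islets at 6 weeks and 34.0% at 16 weeks, 21.1% and 57.6% did so in ob/ob islets at these ages, and 5.50% did so in all 4. Slc2a2 minus Iapp was -1.69 and -1.41 in 16-week db/db islets, against 0.11 and -0.18 in lean KsJ islets. It was -0.79 and -0.97 in 16-week ob/ob islets, against 0.23 and 0.34 in lean 6J islets. In 6-week islets it was -0.09 and -0.78 in db/db mice, against 0.14 and 0.36 in lean KsJ mice, and -1.30 and 0.13 in ob/ob mice, against 0.29 and 0.16 in lean 6J mice. In the smaller table it was -3.29 in the db/db array, against -1.27 in the lean array. As with its signal alone, every obese array lay below every lean array of its own strain and age, and the lean KsJ replicate that was low for both genes moved close to its partner.

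Gjd2 and Ucn3 lay below in this way in 3 of the 4 comparisons, where 41.0%, 34.0% and 57.6% of all other genes did so singly. The share of genes that did so in 3 comparisons was not counted, so this is not read as particular to Gjd2 and Ucn3. Gjd2 minus Iapp was -3.49 and -4.03 in 16-week db/db islets, against -2.66 and -2.96 in lean KsJ islets, and -3.25 and -3.32 in 6-week db/db islets, against -2.54 and -2.20 in lean KsJ islets. It was -3.44 and -3.55 in 16-week ob/ob islets, against -2.68 and -2.57 in lean 6J islets. Only at 6 weeks in ob/ob islets, with -3.52 and -2.80, against -2.59 and -2.92 in lean 6J islets, did the groups overlap.

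Ucn3 minus Iapp was -2.36 and -1.86 in 16-week db/db islets, against -1.30 and -1.47 in lean KsJ islets. It was -1.61 and -1.52 in 16-week ob/ob islets, against -1.10 and -1.04 in lean 6J islets. At 6 weeks it was -1.29 and -1.44 in db/db islets, against -1.20 and -1.02 in lean KsJ islets, and -1.82 and -1.10 in ob/ob islets, against -1.05 and -1.25 in lean 6J islets. Only the 6-week ob/ob arrays overlapped with their controls. The Ucn3 signals of 16-week KsJ islets overlapped on their own, and their separation here comes with the higher Iapp of db/db islets. G6pc2 minus Iapp was -0.56 and -0.70 in 16-week db/db islets, against -0.43 and -0.64 in lean KsJ islets, which overlapped. Ins2 minus Iapp was -0.72 and -0.73 in 16-week db/db islets, inside the -0.90 and -0.11 of lean KsJ islets. These ratios show unequal change of 2 genes and were not tested.

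**Figure D3:**
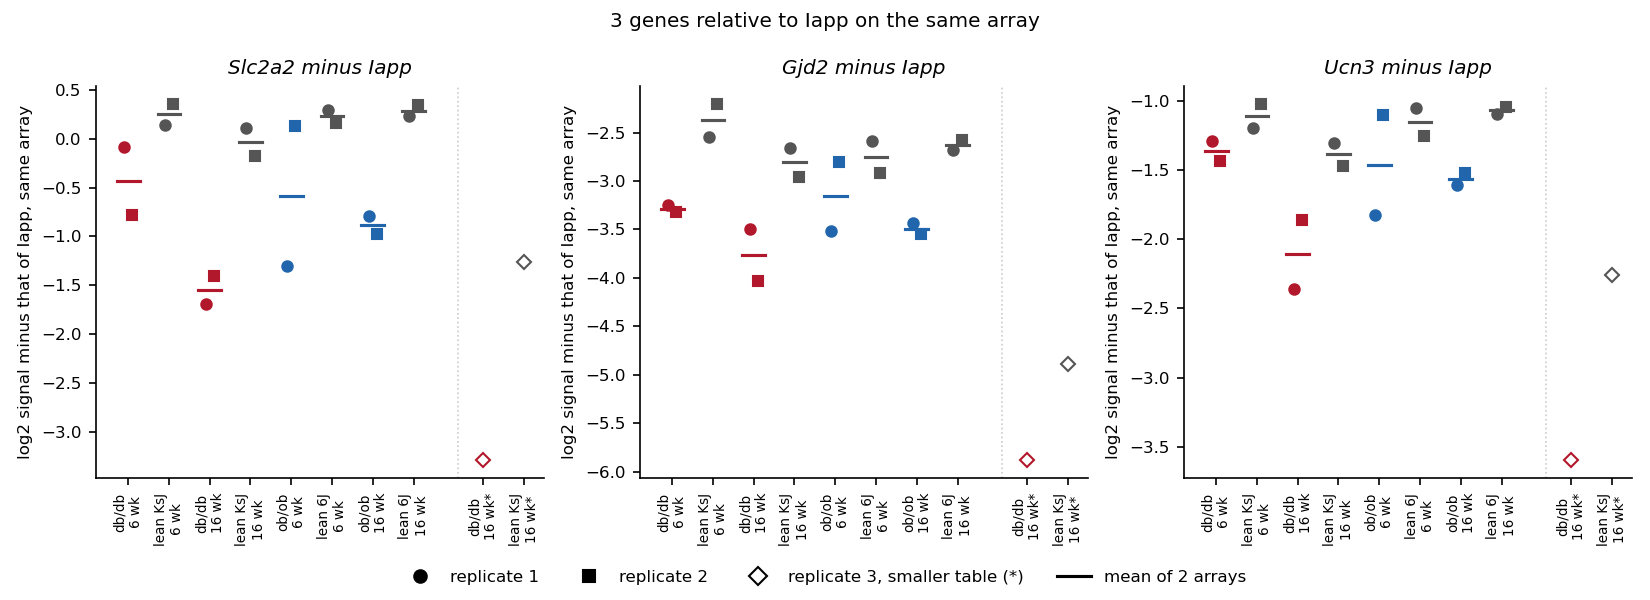
Log2 signal of Slc2a2, Gjd2 and Ucn3 minus that of Iapp on the same array, in 8 groups of 2 arrays (circle and square for replicates 1 and 2, line for the mean) and on the 2 arrays of the smaller table (open diamonds). At 16 weeks the obese arrays lie below the lean arrays of their strain for all 3 genes, in both tables for db/db.

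Over the 16 arrays the Pearson correlation between the 6 genes takes in differences between groups, strains and array scaling alike. It was highest among Slc2a2, Gjd2 and Ucn3, with r = 0.86 for Slc2a2 with Gjd2 and with Ucn3, and r = 0.72 for Ucn3 with Gjd2. G6pc2 had an r of 0.68 with Iapp, 0.50 with Ucn3, 0.39 with Gjd2 and 0.36 with Ins2. Ins2 had an r of 0.49 with Iapp, and Slc2a2 and Iapp had an r of -0.34. The promoters of Slc2a2, Gjd2, Ucn3 and Iapp are printed to set the 3 genes that varied together most closely beside one that did not vary with them. RefSeq (GRCm38.p6) gives the 250 bases before the start of transcription, and capitals mark TAAT, the core bound by homeodomain proteins such as Pdx1 and Nkx6-1, and CANNTG, the E-box bound by Neurod1, on either strand (ATTA is TAAT on the other strand).
Slc2a2, chr3:28697653-28697902, plus strand: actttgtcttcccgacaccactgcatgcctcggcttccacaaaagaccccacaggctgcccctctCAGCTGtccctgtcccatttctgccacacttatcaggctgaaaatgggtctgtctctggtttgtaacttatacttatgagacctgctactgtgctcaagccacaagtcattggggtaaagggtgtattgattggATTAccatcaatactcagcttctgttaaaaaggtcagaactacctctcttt
Gjd2, chr2:114013620-114013869, minus strand: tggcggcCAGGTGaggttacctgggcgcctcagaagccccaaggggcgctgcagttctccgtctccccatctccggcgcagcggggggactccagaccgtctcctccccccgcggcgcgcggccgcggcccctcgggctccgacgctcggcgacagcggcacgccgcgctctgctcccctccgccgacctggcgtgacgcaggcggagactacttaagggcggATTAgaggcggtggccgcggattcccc
Ucn3, chr13:3945350-3945599, minus strand: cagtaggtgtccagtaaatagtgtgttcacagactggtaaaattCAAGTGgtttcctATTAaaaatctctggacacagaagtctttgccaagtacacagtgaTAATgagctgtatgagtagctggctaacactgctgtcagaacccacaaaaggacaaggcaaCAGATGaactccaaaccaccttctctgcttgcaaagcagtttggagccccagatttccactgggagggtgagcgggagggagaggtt
Iapp, chr6:142298175-142298424, plus strand: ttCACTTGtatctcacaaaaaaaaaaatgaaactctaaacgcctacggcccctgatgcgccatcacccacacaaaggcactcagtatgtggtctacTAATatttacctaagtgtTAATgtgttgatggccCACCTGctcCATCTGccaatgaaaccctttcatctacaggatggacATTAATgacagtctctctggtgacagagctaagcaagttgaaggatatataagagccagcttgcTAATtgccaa

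These windows held 1 TAAT in Slc2a2, at base -51 from the start, 1 in Gjd2, at -27, 2 in Ucn3 and 5 in Iapp, of which 2 overlap each other. CANNTG matched 1 time in Slc2a2, at -185, 1 time in Gjd2, at -243, 2 times in Ucn3 and 3 times in Iapp. Its form CATCTG, counted within CANNTG, matched 1 time in Ucn3 and 1 time in Iapp. TGCTGA, the core of the Maf recognition element, matched 0 times in all 4. Of 32851 promoters of the same length, 54.9% held TAAT, 66.2% CANNTG, 14.4% CATCTG and 16.1% TGCTGA. The Gjd2 window stood out in base composition, with 74.0% G and C, against 47.2% in Slc2a2, 46.4% in Ucn3, 42.8% in Iapp and a median of 52.4%. G6pc2 has 2 annotated starts, with 1 and 3 TAAT and 1 and 4 CANNTG matches in their windows. TGCTGA and CATCTG each matched 0 times in the first of these windows and 2 times in the second. A match is a run of letters and does not show a bound site.

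Among all genes tested, the most like Slc2a2 over the 16 arrays were Tmem215, Sytl4 and Maob (r = 0.971, 0.970 and 0.969). Sytl4 encodes granuphilin, which docks insulin granules. The most like Iapp were Snap25, Galnt12 and Tmem63c (r = 0.971, 0.966 and 0.963), and Snap25 is part of the fusion machinery of secretory granules. The most like Gjd2 were Tfrc, the transferrin receptor, Ift81 and Glul (r = 0.956, 0.946 and 0.935).

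The genes most like G6pc2 were Lysmd2, Pgap1 and Nop58 (r = 0.956, 0.950 and 0.941). For Ucn3 they were Elk1, Tcp11 and Slitrk6 (r = 0.934, 0.920 and 0.920), and for Ins2 they were Cops5, Nedd8 and Aph1a (r = 0.935, 0.912 and 0.912). Cops5 and Nedd8 act in protein turnover in most cells, and Ins2 was also the gene of the 6 with the narrowest range. Such values are the highest among the genes ranked, which were most of the 15526 tested, and all rest on the same 16 arrays.

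The other genes of these pathways were read from 6 lists. In 16-week db/db islets 10 of their genes were called, and these calls depended on the fit. Array weights called 0 of the 10 and 0 of all genes (1536 at an unadjusted p below 0.05). A fit to the compared groups alone called 1 of the 10, quantile normalization 4, and a fit without the 3 arrays highest in markers of other tissues 0. Without lean KsJ replicate 2 or without db/db replicate 2 the count was also 0, while with acinar and enterocyte means as covariates it was 10.

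Among factors that keep beta cells mature, Mafa, which drives insulin transcription, was called lower in 16-week db/db islets. It had 8.24 and 8.16 there, against 9.75 and 9.17 in lean KsJ islets, a difference of -1.26 ± 0.32 (adjusted p = 0.047), and -1.67 in the smaller table. It was called under 5 of 12 other settings, with differences from -1.50 to -1.07 and adjusted p from 0.0064 to 0.458. Leaving out 1 array at a time gave differences from -1.54 to -0.97, and most of these fits did not call Mafa. Mafa was 1 of 16 tested factors called lower and 0 were called higher, beside 0.477% and 5.32% of all genes, and the list's median of 0.16 was close to the 0.18 of all genes. In 16-week ob/ob islets Mafa had 9.26 and 9.59, against 9.77 and 9.97 in lean 6J islets, and the difference of -0.45 ± 0.32 was not called.

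Of 11 tested genes of immature or dedifferentiated endocrine cells, 4 were called higher in 16-week db/db islets and 0 lower, beside 5.32% and 0.477% of all genes. Aldh1a3, a retinaldehyde dehydrogenase, had 10.79 and 10.94, against 4.01 and 5.29 in lean KsJ islets, a difference of 6.22 ± 1.13 (adjusted p = 0.020). Cck and Gast, which encode the gut hormones cholecystokinin and gastrin, differed by 5.42 ± 1.01 (adjusted p = 0.021) and 3.17 ± 0.56 (adjusted p = 0.018). Neurog3, the factor of endocrine progenitors, differed by 2.03 ± 0.41 (adjusted p = 0.025). It had 6.97 and 8.34, against 5.61 and 5.65 in 16-week lean KsJ islets, and 7.09 and 6.46 in 6-week lean KsJ islets. The list's median was 0.63, beside 0.18 over all genes. Cck, Gast and Neurog3 are also genes of the gut, and the enterocyte mean was higher on these db/db arrays (6.26 and 8.52) than on the lean KsJ arrays (4.27 and 5.91). On the 6-week lean 6J array with an enterocyte mean of 9.90, Cck was at 6.68, against 4.38 on the other. Gast was at 5.32 against 5.18 there and Neurog3 at 7.17 against 7.04. Cck was also high on arrays with a low enterocyte mean. It was at 7.66 on 6-week ob/ob replicate 1 (enterocyte mean 4.42) and at 8.29 on 6-week db/db replicate 2 (4.53). On 6-week ob/ob replicate 2 (4.29) it was at 4.26. Gast was at 7.13 on 6-week ob/ob replicate 1 and at 5.23 on replicate 2. The part of gut RNA in these 3 differences was not tested beyond the fit with covariates.

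In ob/ob islets Aldh1a3 had 10.43 and 10.16 at 16 weeks, against 4.31 and 4.76 in lean 6J islets, a difference of 5.77 ± 1.13 that was not called (adjusted p = 0.069). At 6 weeks the ob/ob replicates stood apart in it, with 10.52 on replicate 1 and 5.43 on replicate 2. Replicate 1 was the array with the lower Slc2a2 (11.40, against 12.70 on replicate 2), the lower Mafa (8.92, against 10.04) and the lower Ucn3 and Gjd2. Ins2, Iapp and G6pc2 were slightly higher on replicate 1.

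Of 15 tested sugar carriers, hexokinases and glucose-6-phosphatases, 2 were called higher in 16-week db/db islets and 0 lower, beside 5.32% and 0.477% of all genes. The list's median was 0.51, beside 0.18 over all genes, and 0.19 in the smaller table, beside 0.091. G6pc3, the glucose-6-phosphatase found in most tissues, had 7.80 and 8.49, against 6.84 and 7.37 in lean KsJ islets, a difference of 1.04 ± 0.27 (adjusted p = 0.048). Slc2a6, which encodes the transporter GLUT6, had 6.21 and 6.08, against 4.81 and 3.48 in lean KsJ islets, a difference of 2.0 ± 0.53 (adjusted p = 0.049). G6pc3 was called under 6 of 12 other settings and Slc2a6 under 7. With 1 array left out their differences ran from 0.69 to 1.38 and from 1.34 to 2.66, and most of these fits called neither. Slc2a1, which encodes GLUT1, differed by -0.071 ± 0.17 in 16-week db/db islets and by -0.044 ± 0.17 in 16-week ob/ob islets, and neither was called.

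Of 21 tested genes of glucose sensing, prohormone processing and secretion, 2 were called higher in 16-week db/db islets and 0 lower, beside the same shares of all genes. The median was 0.26, beside 0.18 over all genes, and had the opposite sign in the smaller table (-0.088). Gpr119, a lipid receptor of beta cells, differed by 1.49 ± 0.28 (adjusted p = 0.020), and Ptprn, a granule membrane protein, by 1.20 ± 0.26 (adjusted p = 0.028). Gpr119 had 6.54 and 7.39 in 16-week db/db islets and 5.83 and 5.11 in lean KsJ islets, but 6.91 and 7.07 in 6-week lean KsJ islets. Of 15 tested receptors and relatives of the 3 hormones, 0 were called and the median was -0.02. Crhr2, the receptor of urocortin 3, differed by 0.35 ± 0.29 in 16-week db/db islets and by -0.82 ± 0.29 in 16-week ob/ob islets (adjusted p = 0.485 and 0.191). Calcr, the core of the amylin receptor, lay below the level required for testing, between 2.43 and 3.32 on all arrays.

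Of 9 tested gap junction and adhesion genes, 1 was called higher in 16-week db/db islets and 0 lower, beside 5.32% and 0.477% of all genes. The list's median of 0.22 was close to the 0.18 of all genes. This was Cdh2, which encodes N-cadherin, an adhesion protein of beta cells, with 9.92 and 10.20, against 9.23 and 8.90 in lean KsJ islets (1.0 ± 0.18, adjusted p = 0.020). In the other 3 obese against lean comparisons 0 genes of these 6 lists were called. Beside this, 0.0258% of all genes were called for db/db at 6 weeks and 0.00% and 0.0708% for ob/ob at 6 and 16 weeks. At 16 weeks in ob/ob islets 18 of 21 secretion genes and 15 of 16 maturity factors had a difference below 0, with medians of -0.35 and -0.33, beside -0.03 over all genes tested. In the same comparison 12 of 12 acinar genes had a difference above 0, with a median of 1.22, and the part of exocrine RNA in the list medians was not tested.

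**Figure D4:**
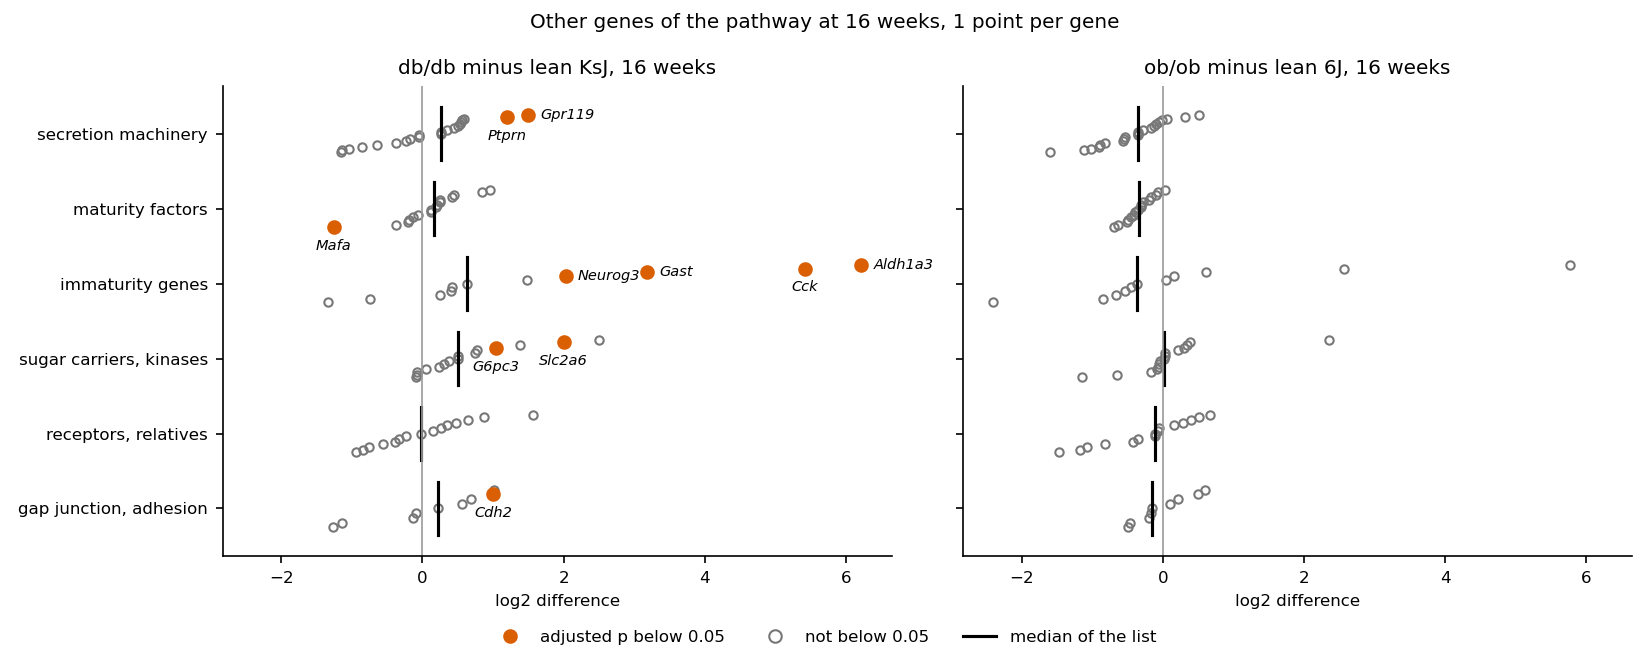
Log2 difference of each tested gene (points, 1 per gene) of 6 lists related to the 6 genes, for db/db minus lean KsJ islets (left) and ob/ob minus lean 6J islets (right) at 16 weeks. Filled orange points are genes with an adjusted p below 0.05 and are named, open points are not, and a vertical bar is the list's median. Mafa is the called gene on the negative side, and no gene is called on the right.

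Markers of other tissues differed between arrays and moved with some of these values. The mean of the 12 acinar genes, most of which encode digestive enzymes, was 9.89 and 10.78 on the 16-week db/db arrays, against 9.44 and 12.19 on the lean KsJ arrays. The high value was that of lean KsJ replicate 2, with Ctrc, a digestive protease, at 13.20, against 9.53 on replicate 1. This is the array with the lower Slc2a2, G6pc2, Ucn3, Iapp and Gjd2 of its group. The lean array of the smaller table also had a high Ctrc, 13.02, against 11.59 in the db/db array.

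The mean of 10 enterocyte genes, of the gut lining, was 6.26 and 8.52 on the 16-week db/db arrays, against 4.27 and 5.91 on the lean KsJ arrays, and 9.90 on 1 of the 6-week lean 6J arrays. Sis, the gut enzyme sucrase-isomaltase, was at 9.84 in the db/db array of the smaller table. The 3 arrays highest in these markers were 16-week lean KsJ replicate 2, 16-week db/db replicate 2 and 6-week lean 6J replicate 2. Without them 1 db/db array was left against 1 lean KsJ array at 16 weeks, with a difference of -1.57 for Slc2a2 and 0.23 for Iapp. With both marker means as covariates Slc2a2 differed by -1.05 ± 0.40 for db/db and by -0.63 ± 0.39 for ob/ob at 16 weeks, and Gjd2 in 16-week ob/ob islets by -0.33 ± 0.20.

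Uty, a gene of the Y chromosome, lay between 7.25 and 7.86 on 5 arrays and at 3.60 or below on the others. The 5 were both 6-week ob/ob arrays and replicate 1 of the 6-week lean KsJ, 16-week lean KsJ and 6-week lean 6J groups. Sex was thus mixed within 3 lean groups, and no db/db array was among the 5. No 16-week ob/ob array was among them either, so age and sex cannot be told apart in ob/ob islets. With Xist, the transcript of the inactive X chromosome, as a covariate, Slc2a2 differed by -0.91 ± 0.41 in 16-week db/db islets and by -0.95 ± 0.38 in 16-week ob/ob islets. Gcg and Sst, the hormone genes of alpha and delta cells, had medians of 13.26 and 13.23 over the 16 arrays, against 12.01 for Ins2. They too lay near the top of the scale. Gcg and Sst differed by 0.086 ± 0.14 and 0.12 ± 0.15 in 16-week db/db islets. In 16-week ob/ob islets they differed by -0.26 ± 0.14 and -0.33 ± 0.15, with both ob/ob arrays below both lean arrays for each. The part of alpha and delta cells in the values of the 6 genes was not tested.

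**Figure D5:**
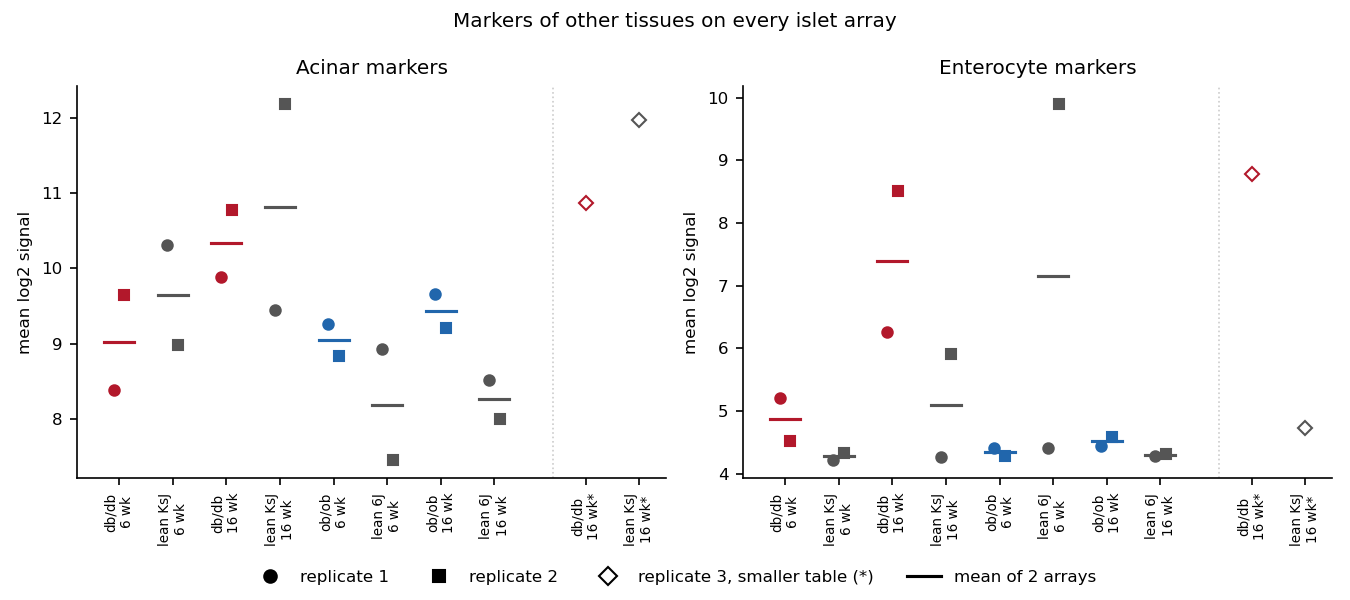
Mean log2 signal of 12 acinar genes and of 10 enterocyte genes on every array, in 8 groups of 2 arrays (circle and square for replicates 1 and 2, line for the mean) and on the 2 arrays of the smaller table (open diamonds). Lean KsJ replicate 2 of 16 weeks is the highest acinar array of the larger table, and 6-week lean 6J replicate 2 and 16-week db/db replicate 2 are its highest enterocyte arrays.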

How the data were processed

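Islet RNA was measured on 18 arrays, 16 in the larger table and 2 in the smaller. The values deposited by the authors are log2 signals per transcript cluster. Per the submitters' processing notes the tools were MAS5, RMA and Partek, with no role or version, and how background was corrected is not given in the sources used here. Scales differ between the 2 tables, so every test stayed within the larger one, with 2 arrays a group, whose number limits the precision. Replicate numbers follow accession order and only name arrays.

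Each table held 41034 clusters, of which the platform annotation gives 23521 a single gene, 1814 several and 15699 none. Symbols were updated through Entrez IDs with the GRCm38.p6 RefSeq gene table. The cluster of highest mean stood for a gene, and genes under the 30th percentile of the mean were left out. limma 3.58.1 in R 4.3.3 (lmFit, eBayes) fitted 1 mean per group to all 16 arrays, with 8 residual degrees of freedom, and the two-sided p-values of 12 comparisons were adjusted by Benjamini-Hochberg over 15526 genes each. The fit was tested on simulated data. Tables and figures were made in Python 3.11.15 with matplotlib 3.10.9.

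The 6 genes, the 15 gene lists and the settings were chosen with earlier results of these data known. Named genes are the 6, the 3 genes most like each over 16 arrays, the called genes of each pathway list (up to 4, by p) and set islet and marker genes. Alternatives were 2 other normalizations, 2 other filters, another variance model, array weights, the mean over clusters, both tables joined, the compared groups alone, 2 sets of covariates, 3 arrays left out together and each array left out in turn. Centring the smaller table was added after its values were seen.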

Additional observations from a re-analysis of the deposited data

How the results depend on the processing

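The 6 genes were refitted in 12 comparisons under 12 other settings and with each of 16 arrays left out, 2016 values in all. Of these, 1914 kept their sign and their side of the threshold, 13 gained a call, 89 changed sign and 0 lost a call. The values that changed sign were at most 0.39 in size to begin with, and the cause was not tested. Slc2a2 kept its sign in all 4 obese against lean comparisons under every setting.

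Calls were gained in 3 settings and by leaving out 1 array. Array weights called Slc2a2 (-0.90) and Gjd2 (-0.60) in 16-week ob/ob islets, 2 of the 6 genes, beside 2969 of all 15526. A fit to the compared groups alone called Slc2a2 (-0.90), 1 of the 6, beside 1273 of all. Joining both tables called Slc2a2 (-1.11) and Iapp (0.57) in 16-week db/db islets, 2 of the 6, beside 2084 of all. The 8 calls gained by leaving out an array all came without 16-week lean KsJ replicate 1, which leaves the array high in acinar genes alone in its group, and the lone array is then assumed to vary like the other groups.

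Without the 3 arrays highest in acinar or enterocyte markers, the sign turned in G6pc2 (-0.031) for 6-week ob/ob minus lean, G6pc2 (-0.073), Ucn3 (-0.10) and Gjd2 (-0.13) for lean 6J by age and G6pc2 (0.036) for db/db against ob/ob at 6 weeks. It also turned there in Iapp (-0.035) and Gjd2 (-0.0070) for db/db against ob/ob at 16 weeks and G6pc2 (0.066) for the ob/ob difference by age. With Xist as a covariate, the sign turned in G6pc2 (-0.10) and Iapp (-0.049) for 6-week ob/ob minus lean, G6pc2 (-0.012) for 16-week ob/ob minus lean, Slc2a2 (0.087), G6pc2 (0.26) and Gjd2 (0.018) for ob/ob by age and Slc2a2 (0.11) and Iapp (0.0060) for lean 6J by age. It also turned there in G6pc2 (0.23) for db/db against ob/ob at 6 weeks, Slc2a2 (0.039) and Ucn3 (0.15) for db/db against ob/ob at 16 weeks and G6pc2 (0.091) for the ob/ob difference by age. With acinar and enterocyte means as covariates, the sign turned in G6pc2 (-0.020) for 6-week db/db minus lean, G6pc2 (-0.045) for 6-week ob/ob minus lean, G6pc2 (0.068) and Gjd2 (0.21) for db/db by age and G6pc2 (0.050) for ob/ob by age. It also turned there in G6pc2 (-0.18), Ucn3 (-0.098) and Gjd2 (-0.32) for lean 6J by age, Ins2 (0.037) and G6pc2 (0.025) for db/db against ob/ob at 6 weeks and Slc2a2 (0.049), G6pc2 (0.23) and Gjd2 (0.20) for the ob/ob difference by age. With median centring, the sign turned in G6pc2 (0.026) for ob/ob by age and Slc2a2 (0.0055) for lean 6J by age. It also turned there in Ucn3 (0.10) for db/db against ob/ob at 16 weeks and Ucn3 (0.042) for the db/db difference by age. With quantile normalization, the sign turned in G6pc2 (-0.0058) for 16-week ob/ob minus lean and Ucn3 (-0.055) for ob/ob by age. It also turned there in Gjd2 (-0.10) for db/db against ob/ob at 16 weeks and Ucn3 (-0.067) for the ob/ob difference by age. With both tables joined, the sign turned in Ins2 (-0.082) for db/db against ob/ob at 16 weeks. In the smaller table, centring gave 0.52 for G6pc2, 0.97 for Iapp and 0.016 for Ins2, whose sign turned.

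Leaving out 1 array at a time gave wider ranges. For 6-week db/db minus lean the range was -0.076 to 0.10 for Ins2, -0.87 to -0.24 for Slc2a2, -0.034 to 0.043 for G6pc2, -0.17 to -0.083 for Ucn3 and 0.075 to 0.18 for Iapp. For 16-week db/db minus lean the range was 0.094 to 0.39 for Ins2, -1.43 to -0.67 for Slc2a2, 0.025 to 0.71 for G6pc2, -0.59 to 0.062 for Ucn3, 0.22 to 0.70 for Iapp and -0.88 to -0.099 for Gjd2. There the number of the 6 genes called ran from 0 to 2. For 6-week ob/ob minus lean the range was -0.053 to 0.18 for Ins2, -1.39 to -0.087 for Slc2a2, -0.031 to 0.19 for G6pc2, -0.53 to 0.056 for Ucn3, 0.0065 to 0.14 for Iapp and -0.62 to -0.045 for Gjd2. For 16-week ob/ob minus lean the range was 0.0048 to 0.065 for G6pc2. For db/db by age the range was -0.094 to -0.046 for Ins2, -0.90 to -0.42 for Ucn3, 0.050 to 0.11 for Iapp and -0.67 to -0.12 for Gjd2. For ob/ob by age the range was -0.053 to 0.18 for Ins2, -0.84 to 0.47 for Slc2a2, -0.037 to 0.022 for G6pc2, -0.28 to 0.30 for Ucn3, 0.042 to 0.18 for Iapp and -0.51 to 0.068 for Gjd2. For lean KsJ by age the range was -0.45 to -0.15 for Ins2, -0.92 to -0.15 for Slc2a2, -0.99 to -0.31 for G6pc2, -0.85 to -0.20 for Ucn3, -0.49 to -0.0098 for Iapp and -1.08 to -0.29 for Gjd2. There the number of the 6 genes called ran from 0 to 4. For lean 6J by age the range was -0.11 to -0.017 for Ins2, -0.096 to 0.051 for Slc2a2, -0.073 to 0.15 for G6pc2, -0.10 to 0.11 for Ucn3 and -0.13 to 0.22 for Gjd2. For db/db against ob/ob at 6 weeks the range was -0.16 to 0.067 for Ins2, -0.46 to 0.84 for Slc2a2, -0.19 to 0.036 for G6pc2, -0.18 to 0.41 for Ucn3, -0.011 to 0.12 for Iapp and -0.74 to -0.16 for Gjd2. For db/db against ob/ob at 16 weeks the range was -0.093 to 0.21 for Ins2, -0.53 to 0.23 for Slc2a2, -0.010 to 0.67 for G6pc2, -0.36 to 0.29 for Ucn3, -0.044 to 0.44 for Iapp and -0.29 to 0.50 for Gjd2. There the number of the 6 genes called ran from 0 to 1. For the db/db difference by age the range was 0.079 to 0.38 for Ins2, -0.88 to -0.12 for Slc2a2, 0.020 to 0.70 for G6pc2, -0.46 to 0.19 for Ucn3, 0.091 to 0.57 for Iapp and -0.10 to 0.68 for Gjd2. There the number of the 6 genes called ran from 0 to 1. For the ob/ob difference by age the range was 0.010 to 0.24 for Ins2, -0.81 to 0.49 for Slc2a2, -0.16 to 0.066 for G6pc2, -0.29 to 0.30 for Ucn3, 0.12 to 0.26 for Iapp and -0.55 to 0.025 for Gjd2.

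The number of all genes called depended strongly on the setting. For 16-week db/db against lean islets it was 900, from 0 to 2084 under other settings and from 43 to 4686 with 1 array left out. For 16-week ob/ob against lean islets it was 11, from 0 to 2969 and from 0 to 328. No paired analysis was possible because replicate numbers only name arrays and the labels give none. Without technical repeats, a lean group whose replicates differ by over 0.5 for most of these genes limits every 16-week KsJ comparison.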

Other observations

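Gene lists for other cells of the islet preparation gave further values. In 16-week ob/ob islets all 6 tested alpha cell genes had a difference below 0 against lean 6J islets. Their median was -1.02, beside -0.03 over all genes tested, and 0 were called, beside 0.0708% of all genes in this comparison. Irx2 and Irx1, transcription factors of alpha cells, differed by -1.69 ± 0.39 (adjusted p = 0.088) and -1.47 ± 0.37 (adjusted p = 0.105). All 6 delta cell genes were also below 0, with a median of -0.53 and 0 called. Ghsr, the ghrelin receptor, differed by -1.72 ± 0.28 (adjusted p = 0.056) and Rbp4, the retinol carrier, by -1.56 ± 0.30 (adjusted p = 0.065). All 12 acinar genes were above 0 in the same comparison, with a median of 1.22. The part of exocrine RNA in the alpha and delta values was not tested. In 16-week db/db islets the alpha and delta medians were 0.0031 and 0.16, beside 0.18 over all genes.

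In 16-week db/db islets 5 of 8 stellate cell genes were called higher and 0 lower, beside 5.32% and 0.477% of all genes, with a median of 1.80, beside 0.18 over all genes. Col3a1 and Col1a1, which encode fibrillar collagens, differed by 2.83 ± 0.27 (adjusted p = 0.0022) and 2.90 ± 0.34 (adjusted p = 0.0077). Of 8 macrophage genes 4 were called higher, with a median of 1.06, among them Tyrobp, an adaptor of myeloid receptors, by 1.48 ± 0.27 (adjusted p = 0.020). Of 8 endothelial genes 2 were called higher, with a median of 0.71, among them Plvap, a protein of fenestrated vessels, by 0.92 ± 0.23 (adjusted p = 0.042). Of 5 duct genes 1 was called higher and of 9 tested enterocyte genes 1, while 0 of 12 acinar genes and 0 of 3 tested genes of PP and epsilon cells were called. The medians of these 4 lists were 0.86, 2.76, -0.20 and -0.44. In the other 3 obese against lean comparisons 0 genes of these 9 lists were called. The shares of all genes there were 0.0258% for db/db at 6 weeks and 0.00% and 0.0708% for ob/ob at 6 and 16 weeks. Of the 13 genes of these lists called in 16-week db/db islets, array weights called 0, the compared groups alone 0, quantile normalization 5 and a fit without the 3 arrays highest in other tissues' markers 2.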
